A study of Mus musculus with 12 samples.

Results

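The transcripts of 10 core circadian clock genes were followed in mouse jejunal epithelium: Arntl, Clock, Npas2, Per1, Per2, Per3, Cry1, Cry2, Nr1d1 and Nr1d2. They were taken by symbol from the 55421 genes of the deposited table, and all 10 were found. Epithelial cells of the jejunum, a stretch of small intestine, were profiled by bulk RNA-seq of total RNA, with 3 libraries in each of 4 groups. The groups are control (Ctrl) at day 1, a knockout of the Wnt receptor gene Fzd5 (Fzd5KO) at day 1, Ctrl at day 3 and Fzd5KO at day 3. The strain, sex and age of the mice, the driver and extent of the deletion, the event that starts the count of days and the hour of day at which tissue was taken were not given. Nothing in the labels says that replicates came from separate animals, so errors and p-values reflect the scatter of these libraries alone and that scatter may be technical.

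The mammalian clock is a feedback loop of transcription that runs in nearly every cell, including the gut epithelium. The proteins of Arntl (BMAL1) and Clock, or its paralog Npas2, pair on E-box sequences and switch on the Period (Per) and Cryptochrome (Cry) genes, whose products then repress that pair. The same pair switches on Nr1d1 and Nr1d2, which encode the nuclear receptors REV-ERB alpha and beta, and these repress Arntl and Npas2 through RORE sequences. Arntl therefore normally peaks at the opposite time of day to Nr1d1, Nr1d2 and the output gene Dbp.

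The list is of textbook clock genes and sets no threshold on a value, but it was chosen on their measured differences between these groups, whose results were known when it was proposed. Levels and differences of the 10 genes are therefore a description, with no test. Values are TPM, a transcript's share of the library, which are scaled by transcript length and can be compared between genes. Differences are on the log2(TPM + 1) scale ± SE from a fit over all genes, and this scale understates the change of low genes. A gene is counted as past the threshold where its p-value, adjusted over all 14510 tested genes, is under 0.05. All 10 genes were tested, and 9 of them reached 1 TPM in every library, the exception being Nr1d1 in Ctrl day 3.

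Fzd5 itself was lower in the libraries labelled Fzd5KO, at 32.7 ± 0.694 against 46.6 ± 2.94 TPM at day 1 and 38.6 ± 0.969 against 64.8 ± 3.95 TPM at day 3 (mean ± SD, n = 3). The part of the gene removed is not given, so the remaining level does not measure the loss of intact transcript. Its libraries did not overlap between genotypes on either day. Epcam, a defining epithelial marker, was at 802.6 to 1229 TPM over the 12 libraries, and each of the 10 listed epithelial markers reached 1 TPM. Markers of nerve and glia stayed under 1 TPM for all 6 genes, and summed levels of 7 endothelial and 6 smooth muscle markers reached at most 2.73 and 7.15 TPM. Sums of other lists reached more, at most 16.4 TPM for fibroblast and 42.3 TPM for myeloid markers. B and plasma cell, T cell and erythroid markers reached at most 130, 210 and 228 TPM, so RNA of other cells was present. Depth is unknown, since TPM holds no read counts.

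In Ctrl day 3, Arntl and Cry1 were at their highest and Nr1d1, Nr1d2 and Per3 at their lowest of the 4 groups, while Ctrl day 1, Fzd5KO day 1 and Fzd5KO day 3 lay closer to each other. The 3 Ctrl day 3 libraries lay outside the range of the other 9 libraries for 8 of the 10 genes, above it for Arntl, Clock, Per2, Cry1 and Cry2 and below it for Per3, Nr1d1 and Nr1d2. Over all tested genes this held for 30.1% (22.8% above and 7.22% below), and for 32.0% with Fzd5KO day 3, 12.1% with Fzd5KO day 1 and 3.11% with Ctrl day 1 as the group outside. Among the 10 core genes, Fzd5KO day 3 lay outside for 1 (Npas2, above), Fzd5KO day 1 for 1 (Clock, below) and Ctrl day 1 for 3 (Per3, Nr1d1 and Nr1d2, above). These counts were chosen after the values were seen. Arntl, Cry1, Per3, Nr1d1 and Nr1d2 kept their place under each of 3 other scalings of the libraries, whereas Clock lost it under all 3, Cry2 under quantile normalization and median-of-ratios scaling, and Per2 under median-of-ratios scaling, which left 5 genes. The hour of collection was not given, so a difference in time of day between groups cannot be told apart from genotype or day.

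**Figure D1:**
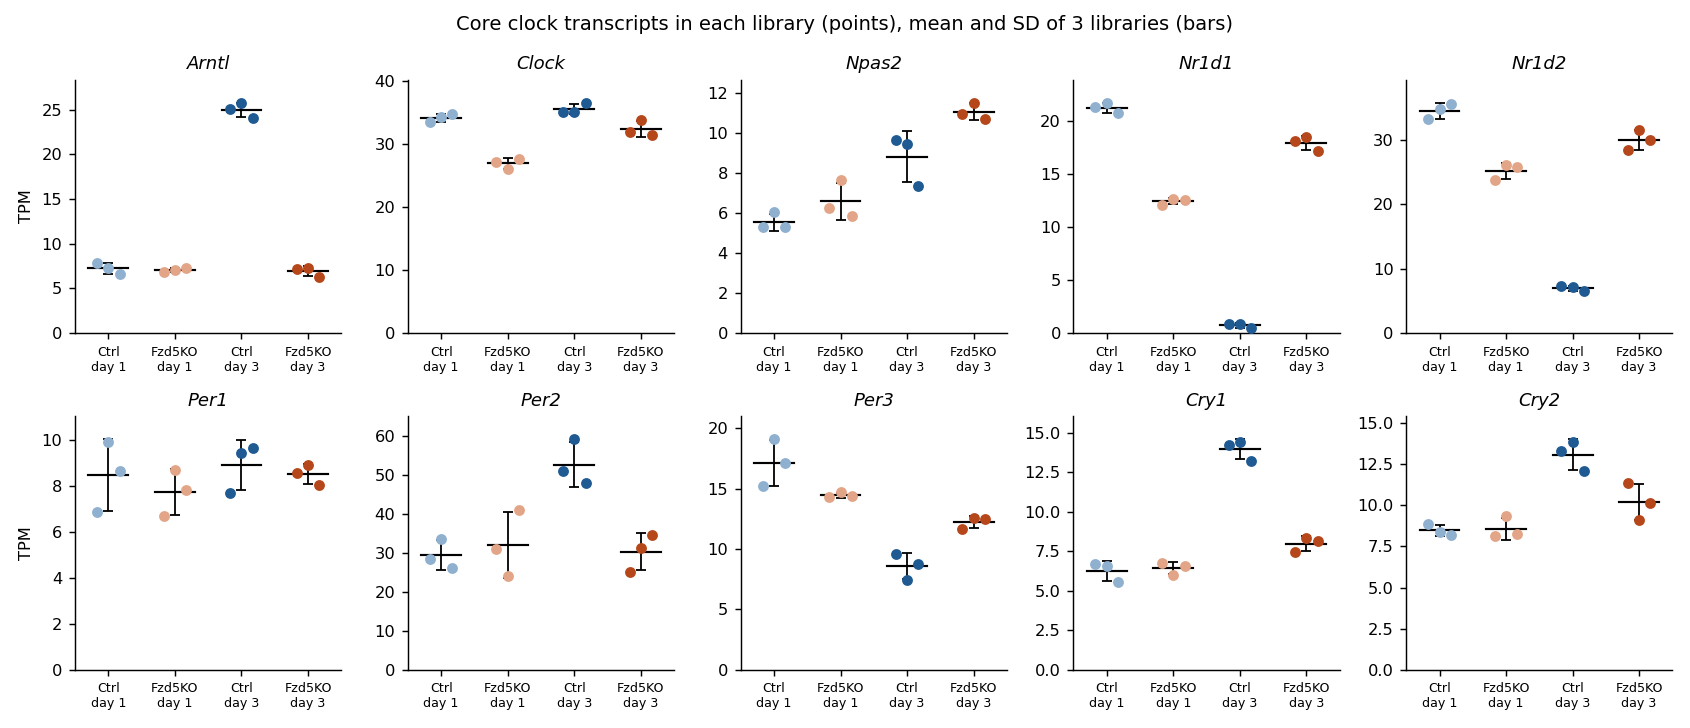
TPM (linear axis from 0) of the 10 core clock genes by group, with a point for each library and bars for the mean and SD of n = 3. Arntl and Cry1 are highest and Nr1d1, Nr1d2 and Per3 lowest in Ctrl day 3, while Per1 overlaps in all 4 groups.

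The promoters of 9 of the 10 genes had an entry in RefSeq (GRCm38.p6), as windows of 250 bases before to 50 after an annotated start. Per2 had none. They were searched on both strands for the E-box CACGTG (in 7.15% of all 32851 windows), the D-box TTANGTAA, to which DBP, TEF, HLF and NFIL3 bind (2.32%), the RORE cores TAGGTCA (2.61%) and TGGGTCA (3.98%), and the cyclic AMP response element TGACGTCA (1.79%). Matches were found for 4 of the 9 genes: Per1, Cry1, Per3 and Arntl. A gene counted where any of its windows held any of these motifs, whereas the shares above are for single motifs in single windows. The share of all genes with such a match was not computed, so nothing is read from the count. The sequences are shown for the 4 matched genes and for Nr1d1, which had no match and, as a fold of group means (28.8), the widest range. Capitals mark the matches, and each sequence runs 5′ to 3′ on the strand of the gene.
Arntl: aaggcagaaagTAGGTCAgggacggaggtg
Nr1d1: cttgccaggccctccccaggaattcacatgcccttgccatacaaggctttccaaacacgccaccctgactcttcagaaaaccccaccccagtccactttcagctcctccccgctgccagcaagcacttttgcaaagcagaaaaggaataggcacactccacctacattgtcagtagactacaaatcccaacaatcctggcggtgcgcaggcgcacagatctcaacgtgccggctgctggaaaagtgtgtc
Per1: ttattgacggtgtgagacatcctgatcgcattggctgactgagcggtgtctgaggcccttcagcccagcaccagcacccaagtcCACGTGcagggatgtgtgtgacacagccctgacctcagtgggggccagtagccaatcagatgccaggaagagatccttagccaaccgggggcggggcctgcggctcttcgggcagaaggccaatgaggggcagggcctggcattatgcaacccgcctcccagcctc
Per3: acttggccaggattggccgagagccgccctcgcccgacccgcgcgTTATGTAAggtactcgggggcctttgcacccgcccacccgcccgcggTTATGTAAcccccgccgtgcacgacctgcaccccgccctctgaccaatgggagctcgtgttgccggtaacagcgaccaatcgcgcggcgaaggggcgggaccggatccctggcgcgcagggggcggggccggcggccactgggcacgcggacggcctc
Cry1: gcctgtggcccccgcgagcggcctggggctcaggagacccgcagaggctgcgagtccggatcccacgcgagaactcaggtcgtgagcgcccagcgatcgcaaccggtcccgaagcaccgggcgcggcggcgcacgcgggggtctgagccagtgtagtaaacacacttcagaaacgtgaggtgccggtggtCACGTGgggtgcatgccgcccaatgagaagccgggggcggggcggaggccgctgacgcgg
The Arntl stretch (chr7:113207530-113207559) lies in an annotated exon of Arntl, and its TAGGTCA begins 31 bases into the transcript from the second of its 2 RefSeq starts. The Nr1d1 stretch (chr11:98775378-98775627) lies outside annotated genes. The E-box of Per1 (chr11:69098699-69098948) begins 166 bases before the first of its 2 RefSeq starts. The window of the other start (chr11:69099902-69100201) had no match, and both windows lie within the annotated span of Per1. The E-box of Cry1 (chr10:85185055-85185304) begins 60 bases before the start. Per3 (chr4:151044666-151044915, within the span of Camta1) holds 2 D-box matches, beginning 205 and 158 bases before the start. A match is a description of the letters in this window and not evidence of binding.

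Arntl, the activator without which the loop does not run, had 1 high group. It was at 25.03, 25.71 and 24.08 TPM in Ctrl day 3 (replicates 1 to 3), and at 7.15, 7.30 and 6.26 TPM in Fzd5KO day 3. At day 1 it was at 7.85, 7.28 and 6.58 TPM in Ctrl and 6.82, 7.01 and 7.28 TPM in Fzd5KO. The 3 lower groups overlapped each other and their means differed by 1.05-fold, and the lowest Ctrl day 3 library lay far above the highest of the other 9. At day 3 the mean was 3.61-fold higher in Ctrl than in Fzd5KO (log2 difference −1.72 ± 0.073), and in Ctrl it was 3.45-fold higher at day 3 than at day 1 (1.66 ± 0.073). The differences between genotypes at day 1 (−0.033 ± 0.073) and between days in Fzd5KO (−0.026 ± 0.073) were smaller than their SE. The day 1 value turned positive with each other scaling, at 0.12, 0.11 and 0.059, and the value between days in Fzd5KO was −0.16 after median-of-ratios scaling and −0.23 after rescaling, both larger in size than that SE.

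The partners of BMAL1 behaved otherwise. Clock differed little, with group means from 26.9 ± 0.822 TPM in Fzd5KO day 1 to 35.5 ± 0.852 TPM in Ctrl day 3. Its clearest gap was at day 1, where all 3 Fzd5KO libraries (26.00 to 27.61 TPM) lay below all 3 Ctrl libraries (33.51 to 34.79 TPM), a log2 difference of −0.33 ± 0.042. After quantile normalization it was −0.21 and after median-of-ratios scaling −0.18, and the day 3 difference (−0.13 ± 0.042) turned to 0.0100 there. Npas2 was higher at day 3 than at day 1 in both genotypes, at 5.54 ± 0.427 and 8.80 ± 1.27 TPM in Ctrl and 6.57 ± 0.936 and 11.04 ± 0.417 TPM in Fzd5KO. Unlike Arntl, Npas2 was highest in Fzd5KO day 3, whose 3 libraries lay above the other 9. Its log2 difference between days was 0.58 ± 0.11 in Ctrl and 0.67 ± 0.11 in Fzd5KO. The difference between genotypes at day 3 (0.30 ± 0.11) was 0.19 without Ctrl day 3 replicate 3 and 0.49 with quantile normalization. The ratio of Npas2 to Clock was 0.162 ± 0.0128 in Ctrl day 1 and 0.341 ± 0.00223 in Fzd5KO day 3. The pseudogene Gm3617 lies inside the span of Npas2 on the same strand and was at 1.74 to 5.04 TPM. Inside the span of Clock, also on its strand, lie Ube2n-ps1 and Gm43658, at most at 4.07 and 3.56 TPM. A share of reads could therefore be assigned to either gene of such a pair.

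The REV-ERB genes were lowest where Arntl was highest, but unlike Arntl they also differed among the other 3 groups. Nr1d1 was at 0.88, 0.86 and 0.47 TPM in Ctrl day 3, and at 18.09, 18.52 and 17.20 TPM in Fzd5KO day 3. At day 1 it was at 21.29, 21.68 and 20.76 TPM in Ctrl and at 12.10, 12.64 and 12.54 TPM in Fzd5KO. All 4 groups were apart from each other, in the order Ctrl day 1, Fzd5KO day 3, Fzd5KO day 1 and Ctrl day 3. In Ctrl the mean was 28.8-fold lower at day 3 than at day 1 (log2 difference −3.69 ± 0.087), and Fzd5KO day 3 lay 24.3-fold above Ctrl day 3 (3.46 ± 0.087). With a pseudocount of 5 these differences were −2.19 and 2.0. At day 1 the direction was the opposite, with Fzd5KO at 0.585 times the Ctrl level (−0.73 ± 0.087).

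Nr1d2 repeated that order at higher levels. It was at 7.24, 7.08 and 6.52 TPM in Ctrl day 3 and at 28.36, 31.53 and 29.99 TPM in Fzd5KO day 3. At day 1 its values were 33.17, 34.76 and 35.62 TPM in Ctrl and 23.70, 26.08 and 25.73 TPM in Fzd5KO. Again no group overlapped the next. The log2 differences were −0.44 ± 0.058 between genotypes at day 1, 1.96 ± 0.058 at day 3 and −2.16 ± 0.058 between days in Ctrl. The day 1 difference was −0.28 with median-of-ratios scaling. The ratio of Nr1d2 to Nr1d1 was 1.63 ± 0.0812 in Ctrl day 1, 2.02 ± 0.0574 in Fzd5KO day 1 and 1.67 ± 0.0920 in Fzd5KO day 3, against 8.23, 8.23 and 13.9 in the 3 Ctrl day 3 libraries. Nr1d1 was thus further below its other levels than Nr1d2. The annotated end of Nr1d1 (chr11:98767932-98775333, minus strand) overlaps that of Thra, the gene for thyroid hormone receptor alpha, on the opposite strand. The sources do not say whether counting used strand, so reads of the 2 genes may not be told apart. Thra lay between 32.3 and 41.4 TPM in all 12 libraries, with 39.8 ± 1.78 TPM in Ctrl day 3 and 38.9 ± 1.34 TPM in Fzd5KO day 3.

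**Figure D2:**
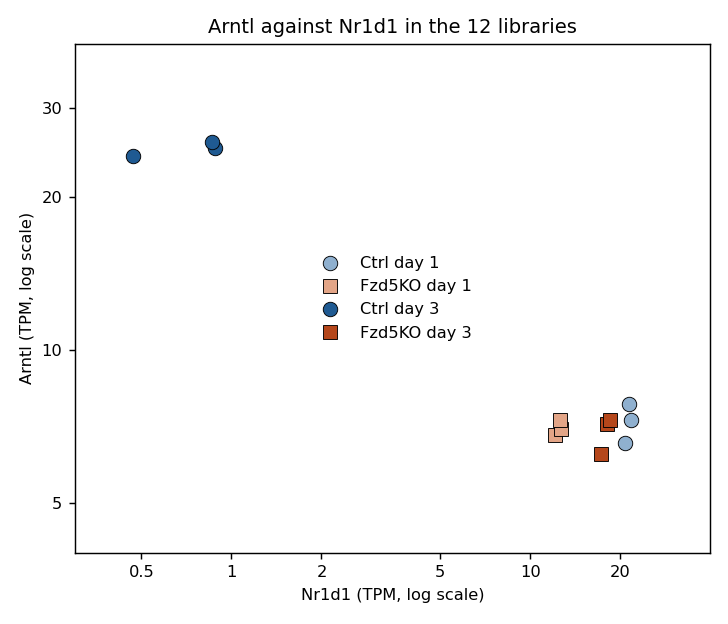
Arntl against Nr1d1 in TPM, both on log axes, with a point for each of the 12 libraries and colours for the 4 groups. The 3 Ctrl day 3 libraries sit alone at high Arntl (24.08 to 25.71 TPM) and low Nr1d1 (0.47 to 0.88 TPM), and the other 9 lie between 6.26 and 7.85 TPM of Arntl.

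Within each library, the ratio of Arntl to Nr1d1 was 28.4, 29.9 and 51.2 in Ctrl day 3. It was 0.340 ± 0.0262 in Ctrl day 1, 0.566 ± 0.0132 in Fzd5KO day 1 and 0.384 ± 0.0178 in Fzd5KO day 3. The 2 REV-ERB genes together gave 7.68 ± 0.607 TPM in Ctrl day 3 and 55.8 ± 1.13, 37.6 ± 1.57 and 47.9 ± 1.90 TPM in Ctrl day 1, Fzd5KO day 1 and Fzd5KO day 3. The 2 Cryptochrome genes together gave 27.0 ± 1.54 TPM in Ctrl day 3 and 14.75 ± 0.949, 15.01 ± 0.284 and 18.2 ± 0.674 TPM in the same order of the other groups. The summed level of all 10 core genes varied far less, from 147 ± 8.34 TPM in Fzd5KO day 1 to 174 ± 7.93 TPM in Ctrl day 3.

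The Period genes, the repressors that set the timing of the loop, went separate ways. Per2 was at 50.87, 59.09 and 48.02 TPM in Ctrl day 3 and at 25.04, 31.36 and 34.58 TPM in Fzd5KO day 3. At day 1 it was at 28.30, 33.58 and 26.10 TPM in Ctrl and at 31.06, 24.13 and 40.99 TPM in Fzd5KO. Ctrl day 3 was above the other 9 libraries, which overlapped freely, and Fzd5KO day 1 had the widest spread (SD 8.47 TPM). The log2 difference was −0.78 ± 0.17 between genotypes at day 3 and 0.83 ± 0.17 between days in Ctrl.

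Per3 ran the other way. It was at 9.60, 7.43 and 8.73 TPM in Ctrl day 3 and at 11.70, 12.56 and 12.51 TPM in Fzd5KO day 3, after 15.24, 19.08 and 17.12 TPM in Ctrl day 1 and 14.35, 14.71 and 14.36 TPM in Fzd5KO day 1. Each group was apart from the next, with Ctrl day 1 highest and Ctrl day 3 lowest. Per3 lies inside the span of Camta1 on the same strand, which was at 2.50 to 9.75 TPM, so a share of reads could be assigned to either gene. The log2 difference was 0.47 ± 0.091 between genotypes at day 3, −0.22 ± 0.091 at day 1 and −0.92 ± 0.091 between days in Ctrl. The day 1 value was not past the threshold, and it was −0.081, −0.071 and −0.13 with the 3 other scalings and −0.15 without Ctrl day 1 replicate 2. The ratio of Per2 to Per3 was between 5.30 and 7.95 in Ctrl day 3 and at most 2.85 in the other 9 libraries. Per1, which also answers to glucocorticoids and other acute signals, lay between 6.68 and 9.93 TPM in all groups. Its groups overlapped and their means differed by at most 1.15-fold, with log2 differences from −0.11 ± 0.13 to 0.13 ± 0.13.

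Both Cryptochrome genes, whose proteins are the strongest repressors of the loop, were highest in Ctrl day 3. Cry1 was at 14.21, 14.42 and 13.24 TPM there, against 7.43, 8.33 and 8.14 TPM in Fzd5KO day 3, 6.72, 6.57 and 5.54 TPM in Ctrl day 1 and 6.74, 6.01 and 6.59 TPM in Fzd5KO day 1. The 2 day 1 groups overlapped and every other pair of neighbours was apart. The log2 difference was −0.74 ± 0.079 between genotypes at day 3 and 1.04 ± 0.079 between days in Ctrl. Cry1 and Per1 both hold an E-box in the windows shown above, and only Cry1 of these 2 had groups that lay apart. Cry2 followed with smaller differences, from 8.47 ± 0.356 TPM in Ctrl day 1 to 13.1 ± 0.917 TPM in Ctrl day 3 (0.57 ± 0.084), and 10.2 ± 1.12 TPM in Fzd5KO day 3. Its genotype difference at day 3 (−0.33 ± 0.084) was −0.16 after quantile normalization and −0.20 after median-of-ratios scaling.

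**Figure D3:**
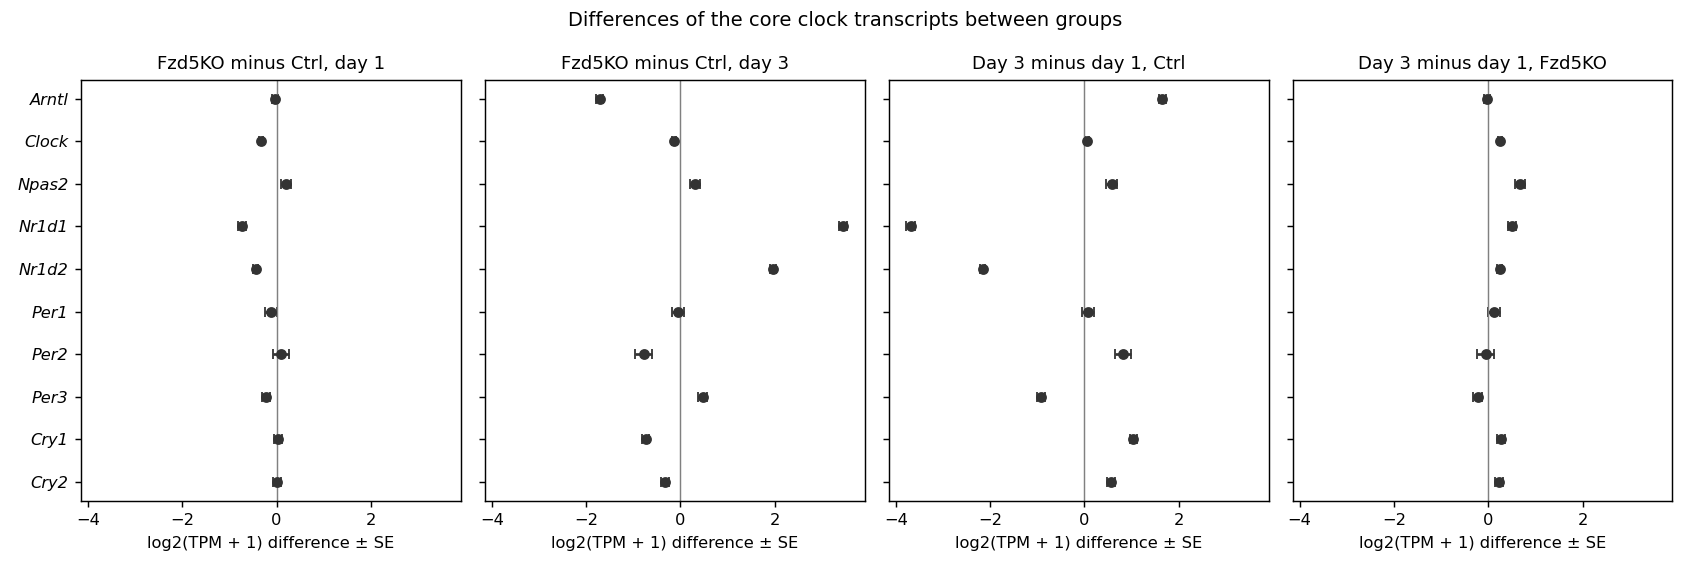
Differences on the log2(TPM + 1) scale between the groups of 4 comparisons, with points for the estimate and bars for ± 1 SE. Nr1d1 and Nr1d2 lie furthest to the right and Arntl furthest to the left in the genotype comparison at day 3, and the order is turned around in the comparison of days within Ctrl.

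Counted over the list, 3 of the 10 genes were past the threshold between genotypes at day 1, all lower in Fzd5KO (Clock, Nr1d1 and Nr1d2), where 25.0% of all tested genes were called (2.13% higher and 22.8% lower). At day 3 it was 9 of 10, 4 higher (Npas2, Per3, Nr1d1 and Nr1d2) and 5 lower, against 62.8% of all tested genes (24.3% higher and 38.5% lower). Between days in Ctrl it was 8 of 10, 5 higher and 3 lower, against 36.1% (25.0% and 11.0%). Between days in Fzd5KO it was 6 of 10, all higher, against 44.9% (34.4% higher and 10.5% lower), and with median-of-ratios scaling it was 3, of which 2 were higher, and with rescaling 4, of which 2 were higher. For the difference between the 2 days' genotype effects it was 8 of 10, 4 in each direction, against 44.3% (25.3% upward and 19.1% downward). The median log2 difference of the 10 genes was −0.072 at day 1, −0.092 at day 3, 0.32 between days in Ctrl and 0.23 between days in Fzd5KO, beside −0.14, −0.14, 0.11 and 0.11 over all tested genes. The comparisons share groups, so their counts are not independent, and nothing is read from them about the list.

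The split of calls by direction over all genes depends on the scaling of the libraries. At day 1, 309 genes were called higher and 3313 lower, against 1277 and 911 under median-of-ratios scaling, 683 and 1306 under rescaling and 851 and 920 under quantile normalization. At day 3 it was 3529 and 5584, against 4567 and 4248 with median-of-ratios scaling. Between days in Ctrl it was 3633 and 1603, against 1774 and 2552 under median-of-ratios scaling and 2226 and 2295 under quantile normalization. Between days in Fzd5KO it was 4985 and 1525, against 2761 and 3609 under rescaling, 3533 and 2792 under median-of-ratios scaling and 3040 and 2855 under quantile normalization. For the difference between the 2 days it was 3665 and 2769, against 2667 and 4489 with rescaling. In these settings Arntl, Nr1d1 and Nr1d2 kept their directions at day 3 and between days in Ctrl.

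A further 24 clock genes, listed for their textbook roles as outputs, receptors, kinases and ubiquitin ligases, were read from the same fit, with p-values adjusted over all tested genes. Of these, 19 were tested. They too were listed with earlier results of these data known, so their p-values are not independent evidence of a direction. At day 3, 8 of the 19 rose in Fzd5KO relative to Ctrl and 7 fell, beside the 62.8% called over all genes, so the share called is not a result about the list. Dbp, the output activator driven directly by BMAL1 and CLOCK, had the largest rise, from 2.86 ± 0.504 TPM in Ctrl to 23.0 ± 2.09 TPM in Fzd5KO (log2 difference 2.64 ± 0.087, limma adjusted p = 5.98e-10). At day 1 it had been at 35.2 ± 0.526 and 29.1 ± 0.783 TPM (−0.27 ± 0.087, adjusted p = 0.0441), a call lost with 6 of the 9 other settings of the fit, each of the 3 other scalings among them, and without any 1 of the 6 day 1 libraries or Fzd5KO day 3 replicate 3. Dbp fell from day 1 to day 3 by 3.24 in Ctrl (adjusted p = 8.02e-10) and by 0.33 in Fzd5KO (adjusted p = 0.00927). The latter was −0.53 with quantile normalization and −0.55 with rescaling.

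The other PAR bZIP factors, relatives of DBP that bind the same D-box, split. Tef was at 25.9 ± 1.23 TPM in Ctrl day 3 and at 48.6 ± 7.48 TPM in Fzd5KO day 3, a rise of 0.87 ± 0.11 (adjusted p = 2.64e-05), after 47.8 ± 6.80 and 39.0 ± 0.970 TPM at day 1 (adjusted p = 0.0789). The day 1 call was made without Fzd5KO day 3 replicate 2 (0.0358). Hlf, in contrast, fell from day 1 to day 3 in both genotypes. It went from 1.997 ± 0.377 to 0.580 ± 0.244 TPM in Ctrl (−0.93 ± 0.16). In Fzd5KO it went from 1.79 ± 0.347 to 0.267 ± 0.193 TPM (−1.14 ± 0.16). These differences were −1.67 and −2.47 with a pseudocount of 0.1 and −0.33 and −0.37 with 5. Every day 3 library was under 1 TPM, at 0.15 to 0.86 TPM. Hlf thus passed the filter only through day 1, where it was high, so its fall is a description and no p-value is given. The difference between genotypes at day 3 was −0.32 ± 0.16 (adjusted p = 0.114), with Hlf low in Fzd5KO day 3 where Dbp and Tef were high. It passed the threshold with a pseudocount of 0.1 (adjusted p = 0.0452) and without Fzd5KO day 3 replicate 2 (0.0472).

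Nfil3, the repressor that competes for the D-box, was high where Arntl was high. Nfil3 was at 8.10 ± 0.269 TPM in Ctrl day 3 and fell to 3.53 ± 0.147 TPM in Fzd5KO day 3 (−1.01 ± 0.098, adjusted p = 3.99e-06), and it was at 2.68 ± 0.438 and 3.42 ± 0.361 TPM at day 1 (0.27 ± 0.098, adjusted p = 0.068). The day 1 difference was called higher in Fzd5KO with each other scaling (adjusted p = 0.0195, 0.0285 and 0.0465). With a pseudocount of 5 its day 3 difference was −0.62. All 3 Ctrl day 3 libraries lay above the other 9. Nfil3 holds the same TAGGTCA core as Arntl, read here on the opposite strand and beginning 12 bases before its start (chr13:52981040-52981069, minus strand, in an annotated exon).
Nfil3: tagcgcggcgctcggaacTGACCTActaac

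Ciart (CHRONO), a repressor of BMAL1 and CLOCK and itself an E-box gene, sided with Nr1d1. It was at 0.41, 0.45 and 0.80 TPM in Ctrl day 3 and at 2.15, 2.44 and 1.98 TPM in Fzd5KO day 3, a rise of 1.04 ± 0.15 (adjusted p = 0.000112). With a pseudocount of 5 the difference was 0.37 and with 0.1 it was 1.85. Dbp, Tef and Hlf were searched for the same motifs. No match was found for Dbp, each Tef window held an E-box, and the Hlf window held the cyclic AMP response element. The Ciart window (last 130 bases before the start, chr3:95882229-95882358, minus strand, with 23 bases in an annotated exon) holds 3 E-boxes, shown in capitals.
Ciart: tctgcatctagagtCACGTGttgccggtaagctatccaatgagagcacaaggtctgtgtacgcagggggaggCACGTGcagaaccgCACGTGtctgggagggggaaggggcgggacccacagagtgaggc
Bhlhe40 (DEC1), another E-box repressor, did not follow that pattern. It was at 60.9 ± 2.34 and 65.4 ± 2.26 TPM at day 3 (adjusted p = 0.236, though 0.00426 and higher in Fzd5KO after median-of-ratios scaling) and rose between days in both genotypes, by 0.35 ± 0.071 in Ctrl (adjusted p = 0.00306) and 0.40 ± 0.071 in Fzd5KO (adjusted p = 0.00077, lost with quantile normalization at 0.219). Its paralog Bhlhe41 reached at most 0.35 TPM. Rora, also on the list of other clock genes, reached at most 0.49 TPM, and both were too low to be tested.

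**Figure D4:**
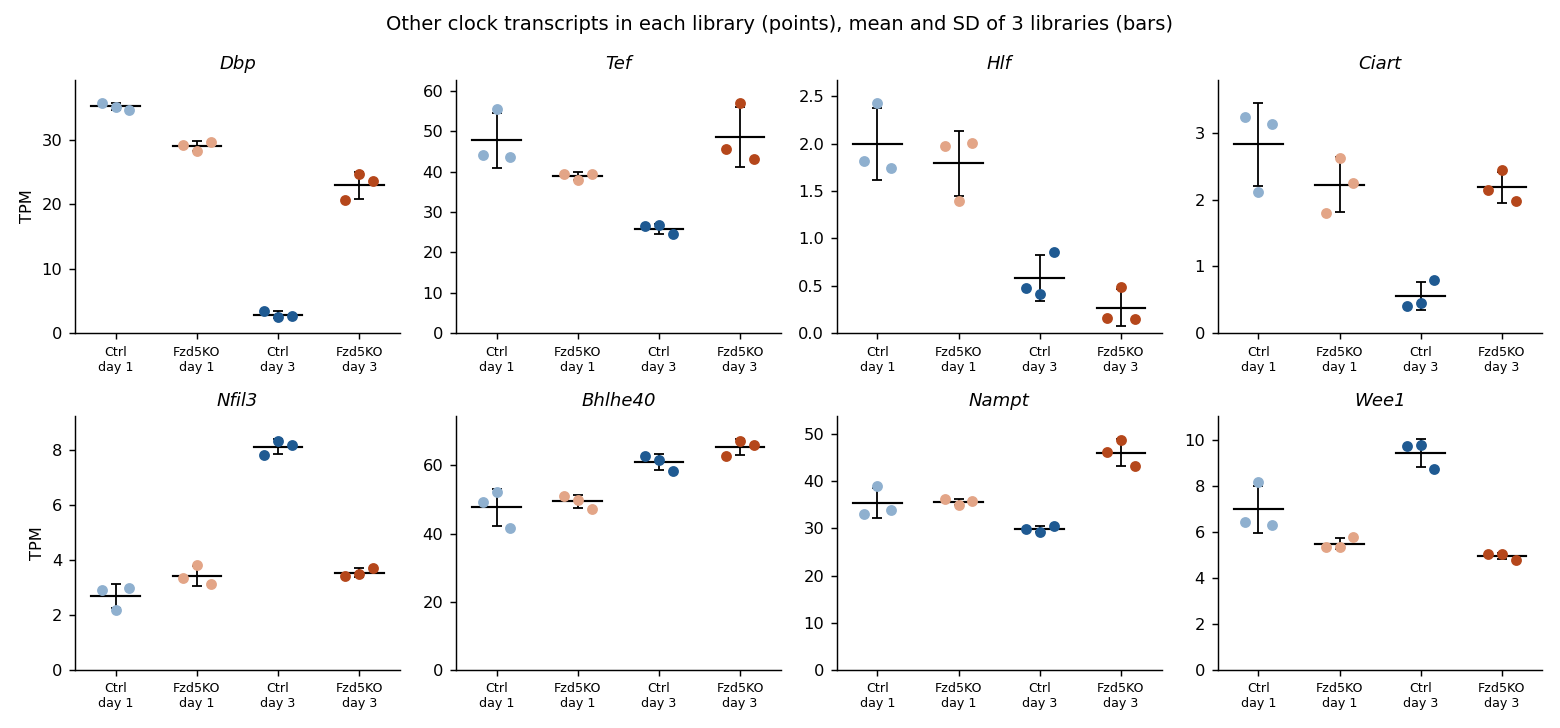
TPM (linear axis from 0) of 8 clock genes outside the core list by group, with a point for each library and bars for the mean and SD of n = 3. Dbp, Tef and Ciart are lowest and Nfil3 and Wee1 highest in Ctrl day 3, whereas Hlf is low in both day 3 groups and Bhlhe40 is higher in both.

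Among the remaining outputs and modifiers, those with the smallest p-values at day 3 were Nono, a cofactor of PER proteins that fell by 0.73 (adjusted p = 6.89e-07), Nampt, the rhythmic enzyme of NAD synthesis that rose by 0.61 (adjusted p = 6.35e-06), and Wee1, a kinase linking the clock to mitosis that fell by 0.81 (adjusted p = 1.1e-05). Nampt was at 29.9 ± 0.637 TPM in Ctrl day 3 and 46.1 ± 2.80 TPM in Fzd5KO day 3. Between genotypes at day 1, 0 of the 19 rose and 5 fell (Dbp, Wee1, Nono, Gsk3b and Csnk1d), beside 25.0% over all genes. On quantile-normalized values 1 rose and 0 fell, and after median-of-ratios scaling 2 rose and 0 fell. The count was 2 without Ctrl day 1 replicate 2, Fzd5KO day 1 replicate 1 or Fzd5KO day 1 replicate 3, and 3 without Fzd5KO day 1 replicate 2. Between days in Ctrl, beside 36.1% called over all genes, 8 rose and 5 fell (3 and 8 with median-of-ratios scaling). In Fzd5KO, beside 44.9%, 8 rose and 5 fell (5 and 8 with the rescaled values). Hlf, which passed the filter only through day 1, is among the 5 that fell in each genotype.

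The difference between the 2 days' genotype effects was tested for these genes as an interaction. It was called for 14 of the 19, 9 upward and 5 downward, beside 44.3% over all genes. It was 2.91 ± 0.12 for Dbp (adjusted p = 1.14e-08), 1.15 ± 0.15 for Tef (8.45e-05), 1.29 ± 0.22 for Ciart (0.000557) and −1.27 ± 0.14 for Nfil3 (1.91e-05). With a pseudocount of 5 it was 0.49 for Ciart and −0.75 for Nfil3. For Hlf (−0.21 ± 0.23, adjusted p = 0.489) and Bhlhe40 (0.044 ± 0.10, adjusted p = 0.75) it did not pass. The same quantity, untested, was −1.68 ± 0.10 for Arntl, 4.18 ± 0.12 for Nr1d1 (2.59 with a pseudocount of 5) and 2.40 ± 0.083 for Nr1d2.

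Genes whose pattern was most like Arntl and Nr1d1 were ranked by Pearson correlation of log2(TPM + 1) over the 12 libraries, among 8913 genes with a mean of at least 5 TPM. The libraries of a group are not independent of its level, so the values are a description. Closest to Arntl were Pllp (r = 0.986), Lgals2 (0.983), Hsp90ab1 (0.980), Cdx1 (0.974) and Stip1 (0.972). Pllp was at 23.3 ± 1.66 TPM in Ctrl day 3 and between 11.8 and 12.7 TPM on average in the other groups. Closest to Nr1d1 were Abcc2 (r = 0.998), Pim1 (0.989), Gzma (0.987), Aspa (0.987) and Cd7 (0.982). Abcc2, which encodes the apical export pump MRP2, was at 105 ± 6.20 TPM in Ctrl day 3, 401 ± 13.3 TPM in Fzd5KO day 3, 415 ± 15.9 TPM in Ctrl day 1 and 342 ± 3.72 TPM in Fzd5KO day 1. Gzma and Cd7 are genes of cytotoxic and intraepithelial lymphocytes.

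Cell type markers differed between the same groups. The summed level of 11 T cell markers was 46.8 to 50.3 TPM in Ctrl day 3, 177 to 202 TPM in Fzd5KO day 3, 189 to 210 TPM in Ctrl day 1 and 124 to 147 TPM in Fzd5KO day 1, the same order of Ctrl day 3 below the rest as for Nr1d1. Of these, 10 were tested, and all 10 were called higher in Fzd5KO at day 3, where 62.8% of all tested genes were called (24.3% higher and 38.5% lower). Enterocyte markers (15 genes) summed to 19892 to 21008 TPM in Ctrl day 3 and 43807 to 45335 TPM in Fzd5KO day 3, and 14 of 15 rose. At day 1 their sums were 24904 to 26030 TPM in Ctrl and 27004 to 27800 TPM in Fzd5KO, so Ctrl day 3 was their lowest group too. Crypt base markers summed to 743 to 794 TPM in Ctrl day 3 and 122 to 130 TPM in Fzd5KO day 3, and 12 of 12 fell. Cycling markers summed to 645 to 679 TPM and 343 to 356 TPM in the same groups, and 16 of 16 fell. Erythroid markers (5 genes) summed to 201 to 228 TPM in Ctrl day 3 and 54.4 to 69.4 TPM in Fzd5KO day 3. At day 1, crypt base markers summed to 512 to 533 TPM in Ctrl and 180 to 188 TPM in Fzd5KO. Cycling markers were then at 516 to 533 and 444 to 461 TPM, and erythroid markers at 88.4 to 108.5 and 54.2 to 67.6 TPM. Ctrl day 3 was thus the highest group for the crypt base, cycling and erythroid sums, as it was for Arntl. B and plasma cell markers (8 genes, 7 tested) summed to 25.7 to 33.8 TPM in Ctrl day 3 and 102 to 130 TPM in Fzd5KO day 3, with 7 of 7 higher, and to 25.8 to 32.5 TPM in Ctrl day 1 and 16.9 to 19.2 TPM in Fzd5KO day 1, so Ctrl day 3 was not their lowest group. Myeloid markers (9 genes, 8 tested) summed to 17.1 to 17.9 TPM in Ctrl day 3 and 32.9 to 42.3 TPM in Fzd5KO day 3, with 6 of 8 higher. At day 1 their sums were 22.37 to 25.16 TPM in Ctrl and 20.65 to 23.23 TPM in Fzd5KO, so Ctrl day 3 was lowest for these as well. No marker of any list was at 0 in all libraries. In bulk samples, fewer cells of a type and less RNA per cell cannot be told apart, and the part of these cell types in the clock gene values was not tested.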

How the data were processed

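Bulk RNA-seq was made from total RNA of jejunal epithelial cells in 12 libraries, 3 in each of 4 groups. The authors deposited 1 table of TPM values for 55421 genes, with 0 columns of other samples. STAR 2.7.3a, RSEM without a version, bcl2fastq 2.18 and the build mm10 are named in the submitters' processing notes, with no role or order. Which annotation was used, and whether reads were counted by strand, is not given here. TPM keeps no depth, so no counting interval could be given.

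Coordinates come from GENCODE mouse release 21 (GRCm38), matched by identifier for 55240 genes. The fit was made in limma 3.58.1 (R 4.3.3) on log2(TPM + 1). It had 4 group means, a spread pooled over the 12 libraries (8 residual degrees of freedom) and a trend of variance with level. Genes had to reach 1 TPM in 3 libraries or more, which left 14510, and p-values were adjusted over these by the Benjamini-Hochberg method. The procedure was tested on simulated data. The members, gene lists, comparisons and rule for named genes were chosen with earlier results of these data known. The rule took all core genes, up to 6 other clock genes called in a comparison by smallest p, 8 clock genes whatever their result, and the 5 genes most alike to Arntl and to Nr1d1, leaving out predicted, small RNA and mitochondrial genes. One listed gene is not reported here.

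Alternatives were other pseudocounts, filters and scalings (quantile, median-of-ratios, and TPM rescaled after removal of the 20 most abundant genes and of mitochondrial, predicted and small RNA genes), a replicate block, only the groups compared, and each library left out. Plots used matplotlib 3.10.9 (Python 3.11.15).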

Additional observations from a re-analysis of the deposited data

Results flagged for a closer look

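For 3 core genes the genotype groups lay apart in opposite directions on the 2 days, with every Fzd5KO library below every Ctrl library at day 1 and above every Ctrl library at day 3. For Per3 the day 1 difference was small, −0.22 as reported and −0.081, −0.071 and −0.13 with the 3 other scalings. The day 3 difference minus the day 1 difference was 4.18 for Nr1d1, 2.40 for Nr1d2 and 0.70 for Per3 on the log2(TPM + 1) scale. These differences between days were not tested, since the genes were chosen with such values known. The share of all tested genes with this pattern was not computed, so nothing is read from the count of 3.

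For 4 clock genes outside the core list, limma's interaction of genotype and day passed. Its value was 2.91 for Dbp, 1.15 for Tef and 1.29 for Ciart, and it was −1.27 for Nfil3. Each of the 4 rests on the same 12 libraries, and Ctrl day 3 was the group farthest from the others for each.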

How the results depend on the processing

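Over the alternatives, 932 of the core genes' recomputed differences moved by less than the spread between replicates, 107 moved by more, and 1 past the threshold reversed, Clock between genotypes at day 3 with median-of-ratios scaling (0.0100). Many of the 932 could not move. Other filters, the replicate block, a fit of only the groups compared and the loss of a library from another group leave a difference of group means unchanged. The 932 is therefore no measure of robustness. Other scalings moved the median of all genes by up to 0.14 between genotypes at day 1, 0.12 at day 3, −0.11 between days in Ctrl, −0.185 between days in Fzd5KO and −0.17 for the interaction, so small differences depend on the scale in each comparison. Quantile normalization, median-of-ratios scaling and rescaling called 1771, 2188 and 1989 genes between genotypes at day 1, against 3622. Of the other clock genes they called 1, 2 and 2, and no filter called 2, against 5. Without single libraries these counts ran from 2229 (without Ctrl day 1 replicate 2) to 3674 and from 2 to 6. Median-of-ratios scaling left 3 core genes past the threshold between days in Fzd5KO, against 6, and 5 with Ctrl day 3 outside the other libraries, against 8. The last count's alternatives were chosen after seeing the data. The cause was not tested.

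Signs turned for differences near 0. Between genotypes at day 1, Hlf was 0.078 with quantile normalization, 0.0036 with median-of-ratios scaling and −0.16 to 0.0041 without single libraries, and Bhlhe40 was −0.035 to 0.12 without single libraries, but 0.22 and called with median-of-ratios scaling (adjusted p = 0.0323). At day 3 Bhlhe40 was −0.052 with quantile normalization. For the interaction, Bhlhe40 was −0.23 with quantile normalization (adjusted p = 0.046), −0.15 with rescaling and −0.022 to 0.14 without single libraries. Between days in Fzd5KO, Nfil3 was −0.0022, −0.077 and −0.14 with the 3 other scalings, and −0.0100 to 0.10 without single libraries. Ciart was −0.11 to 0.078 without single libraries.

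The labels do not say whether replicate numbers pair the libraries. Same-numbered libraries of 2 groups had correlations of their deviations from −0.069 to 0.093. Differently numbered libraries were not compared, so these values do not settle whether libraries were paired. With the replicate block, 3414 genes were called between genotypes at day 1 and 9029 at day 3, against 3622 and 9113, and 3 and 9 core genes were past the threshold as without it. Tef at day 1 was called with the block (−0.28, adjusted p = 0.0466, against 0.0789).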

Other observations

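Per1 is also known as a target of glucocorticoids and of acute stimuli, so lists of such genes were read beside it. The summed level of 11 glucocorticoid-responsive genes, Per1 among them, was 456 to 502 TPM in Ctrl day 1, 291 to 299.5 TPM in Fzd5KO day 1, 284 to 307 TPM in Ctrl day 3 and 314 to 328 TPM in Fzd5KO day 3. Of 10 tested members, 2 rose and 2 fell between genotypes at day 1, beside 25.0% called over all genes. Their median log2 difference there was −0.070 and the lowest −2.03, so the sum does not stand for the typical member. At day 3, 2 rose and 3 fell, beside 62.8%, and between days in Ctrl 2 rose and 3 fell, beside 36.1%. Immediate early genes (14 listed) summed to 178 to 196 TPM in Ctrl day 3, the lowest group, and to 328 to 334 TPM in Fzd5KO day 3, where 7 of 13 tested members rose and 3 fell relative to Ctrl, beside 62.8% called over all genes (24.3% higher and 38.5% lower). Per1 itself lay between 6.68 and 9.93 TPM in all 12 libraries.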
